A study of Mus musculus with 9 samples.

Results

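The nuclear-encoded subunits of mitochondrial respiratory chain complexes I to IV were examined in granulosa cells of the mouse ovary, which line the follicle and nurse the oocyte, after infection in culture. The genes were chosen by symbol: names beginning with Nduf and a subunit letter and number, Uqcr, or Cox4 to Cox8, and the 4 succinate dehydrogenase genes Sdha, Sdhb, Sdhc and Sdhd. This gave 64 of the 18193 genes with a single symbol on the array. By symbol, 35 were counted in complex I, 4 in complex II, 8 in complex III and 17 in complex IV. Ndufa4 and Ndufa4l2 are thus among the complex I genes. Where several probe sets report a gene, the one with the highest mean log2 value across the 9 arrays stands for it. The 64 genes have 133 probe sets in all, and 38 of them have more than 1. Of the 64, 5 were dim, with a mean log2 value under 6 (Cox4i2, Cox6b2, Cox7a1, Cox7b2 and Ndufb4). Ndufs6, Ndufa11, Ndufb4b, Ndufb4c and Cox7b are not analysed here.

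The respiratory chain passes electrons to oxygen and pumps protons across the inner mitochondrial membrane, and ATP synthase uses that gradient to make ATP. Complex I takes electrons from NADH and complex II from succinate, complex III passes them from ubiquinone to cytochrome c, and complex IV hands them to oxygen. Each complex has a few core subunits that carry out the chemistry and, except in complex II, many small accessory subunits. In granulosa cells, mitochondria also hold the side chain cleavage enzyme, which turns cholesterol into the starting steroid.

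Donor mice were 20 to 26 days of age and had received equine chorionic gonadotrophin, which makes follicles grow, 48 h earlier, and the cells attached overnight in medium with 1% serum. They were infected for 24 h without serum with an adenovirus for WNT4, a secreted signalling protein, for Cre recombinase, or for enhanced GFP as the control. There were 3 arrays per virus, and the multiplicity of infection was about 50. The mice were of various genotypes, and the sources used here do not tie a genotype to a group. The Cre virus serves to recombine floxed alleles of Ctnnb1, which encodes beta-catenin. The labels call the replicates biological but mention no separate animals or cultures, so a p-value measures spread between these samples, which may be technical.

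A few promoters are shown because factors such as NRF1 and the ETS family are known to bind the promoters of respiratory chain genes. The part of such factors in the values below was not tested. Of the 64 genes, 51 had a promoter in the RefSeq table (build GRCm38.p6), and the 250 bases before the start of the gene were searched on both strands. The NRF1 letters GCGCANGCG were found in 7 of the 51 (13.7%) and in 5.33% of all 27025 promoters of the same length. The ETS letters CCGGAAG were found in 8 of the 51 (15.7%) and in 7.05% of all promoters. The letters ACGTG, the core bound by hypoxia-inducible factors (HIF), were found in 9 (17.6%) and in 16.6% of all promoters. The letters AAGGTCA of oestrogen-related receptors were found in 3 (5.88%) and in 4.05%. Sdhd and Cox6a1 were the only 2 subunit promoters with both the NRF1 and the ETS letters, and 38 of the 51 had neither. A match is a run of letters, not a measured binding site.

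The promoters of Cox6a1 (chr5:115348959-115349208, minus strand) and Sdhd (chr9:50603850-50604099, minus strand) are shown for that pair of motifs. The promoter of Ndufa1 (chrX:37191239-37191488, minus strand) belongs to the subunit with the lowest p-value. Those of Ndufv3 (chr17:31519865-31520114, plus strand) and Ndufa5 (chr6:24527527-24527776, minus strand) belong to subunits that stood on opposite sides of GFP on a pair of arrays described further on. Capitals mark the NRF1, ETS and HIF letters on either strand.
Cox6a1: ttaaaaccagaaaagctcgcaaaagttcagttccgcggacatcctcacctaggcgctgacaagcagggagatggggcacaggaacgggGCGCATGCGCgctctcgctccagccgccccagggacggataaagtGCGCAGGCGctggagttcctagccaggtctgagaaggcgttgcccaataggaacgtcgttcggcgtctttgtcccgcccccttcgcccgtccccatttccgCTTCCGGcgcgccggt
Sdhd: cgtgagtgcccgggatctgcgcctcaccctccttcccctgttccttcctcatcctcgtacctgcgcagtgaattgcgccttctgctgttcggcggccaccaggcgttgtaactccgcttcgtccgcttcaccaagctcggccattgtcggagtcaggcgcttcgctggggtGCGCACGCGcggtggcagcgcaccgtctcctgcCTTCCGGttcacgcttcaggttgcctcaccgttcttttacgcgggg
Ndufa1: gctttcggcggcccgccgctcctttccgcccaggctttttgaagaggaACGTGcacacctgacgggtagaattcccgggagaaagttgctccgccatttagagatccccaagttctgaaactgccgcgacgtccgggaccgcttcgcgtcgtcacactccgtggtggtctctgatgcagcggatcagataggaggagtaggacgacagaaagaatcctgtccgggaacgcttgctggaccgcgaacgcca
Ndufv3: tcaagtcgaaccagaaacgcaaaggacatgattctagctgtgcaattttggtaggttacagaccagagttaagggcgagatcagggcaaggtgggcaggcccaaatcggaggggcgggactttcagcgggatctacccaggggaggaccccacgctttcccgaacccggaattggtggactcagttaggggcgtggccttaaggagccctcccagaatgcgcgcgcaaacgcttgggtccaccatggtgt
Ndufa5: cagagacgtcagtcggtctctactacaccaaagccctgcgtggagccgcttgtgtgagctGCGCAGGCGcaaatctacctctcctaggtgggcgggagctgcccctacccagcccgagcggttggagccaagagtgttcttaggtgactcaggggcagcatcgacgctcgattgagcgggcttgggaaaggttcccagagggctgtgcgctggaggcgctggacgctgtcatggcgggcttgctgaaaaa
Cox6a1 held 2 stretches of NRF1 letters, the longer one made of overlapping matches, and 1 ETS match close to the start. Sdhd held 1 NRF1 and 1 ETS match, Ndufa5 held 1 NRF1 match, Ndufa1 held 1 HIF match and Ndufv3 held none of these letters.

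The deposited values are log2 intensities. Array medians lay between 5.44 and 5.54, while the level that 1% of probe sets exceed was 13.09, 12.64 and 12.91 on the WNT4 arrays, 12.42, 12.68 and 12.64 on the Cre arrays and 12.46, 12.39 and 12.59 on the GFP arrays. Bright probe sets therefore read higher on arrays WNT4 1 and WNT4 3. The genes targeted by the viruses did not settle the labels: Wnt4 averaged 9.34 ± 0.48 with WNT4, 10.63 ± 0.55 with Cre and 9.41 ± 0.45 with GFP, and Ctnnb1 averaged 13.77 ± 0.32, 13.28 ± 0.30 and 13.24 ± 0.28 in the same order (SD, n = 3). Of 13 granulosa cell markers 12 had a mean of at least 6, among them Foxl2, Fshr and Inha. Markers of other cells were present to a varying degree: 9 of 11 oocyte markers, 9 of 12 leukocyte markers, 8 of 14 theca, stroma and smooth muscle markers, 3 of 8 endothelial markers, 2 of 14 striated muscle markers and 0 of 3 erythrocyte markers reached a mean of 6. With 3 arrays per virus, precision is limited by their number.

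The WNT4 arrays were set against the GFP arrays, the control of the design. With WNT4, 59 of the 64 subunits (92.2%) had a higher mean than with GFP, against 53.9% of all genes and 88% of the 2643 genes with a mean of at least 10, and the median difference was 0.26 on the log2 scale. By complex the median was 0.23 for complex I, 0.33 for complex II, 0.38 for complex III and 0.26 for complex IV, against 0.02 over all genes and -0.00 over all probe sets. None passed the test over all probe sets: limma called 0 of 64 subunits at an adjusted p under 0.05, beside 7 of 45037 probe sets (0.0155%), and the lowest adjusted p of a subunit was 0.178. At an unadjusted p under 0.05, 23 subunits were higher (35.9%), against 12.6% of all genes and 37.4% of those bright genes, and 0 were lower, against 4.46% of all genes. With 1 array left out at a time, that count ran from 17 (without GFP 2) to 35 (without WNT4 3). The share of all genes in those fits is not given here, so these counts describe the subunits alone. The WNT4 and GFP arrays did not overlap, with WNT4 higher, at 26 subunits (40.6%), against 12.5% of all genes and 36.7% of the genes with a mean of at least 10. Because 49 of the 64 subunits have a mean of at least 10, the shares among bright genes are the ones closest in level, and the subunits were near them. In total RNA from a culture, fewer cells of a type and less RNA per cell cannot be told apart.

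**Figure D1:**
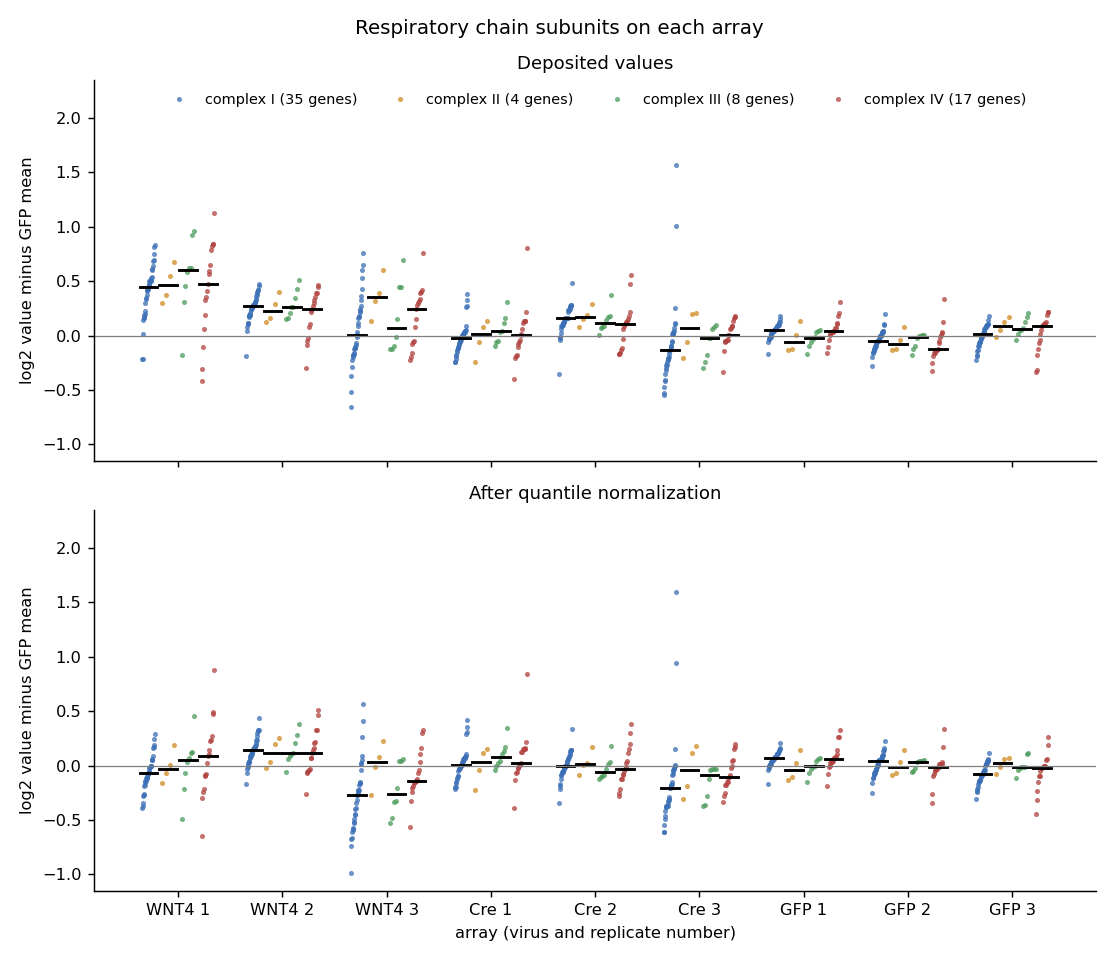
Each point is 1 of the 64 subunit genes on 1 array, as its log2 value minus the mean of the 3 GFP arrays, with complexes I to IV side by side and a black bar at the median of each complex. The deposited values (top) lie highest on WNT4 1, with a median of 0.47 over all subunits, and after quantile normalization (bottom) that median is -0.04, while those of WNT4 3 and Cre 3 are -0.21 and -0.17.

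By array, the median subunit exceeded its GFP mean by 0.47, 0.27 and 0.12 on WNT4 1, WNT4 2 and WNT4 3. The same median was -0.02, 0.14 and -0.05 on the Cre arrays and 0.04, -0.05 and 0.04 on the GFP arrays. All 3 WNT4 arrays were above the GFP arrays by this median, but Cre 2 was above WNT4 3. Genes with a mean of at least 10 stood at 0.48, 0.13 and 0.31 on the WNT4 arrays and -0.04, 0.15 and 0.05 on the Cre arrays. On WNT4 2 the subunits were thus further above GFP than bright genes in general, and on WNT4 3 less far above. The highest values of WNT4 1 go with its other properties: it had the highest 3' to 5' difference of the 9 arrays for beta-actin (1.38) and Gapdh (2.17) and the highest oocyte marker level, 1.73 above the GFP mean over 11 markers. The mean of the oocyte markers ran from 6.73 to 8.30 with WNT4, 6.63 to 7.74 with Cre and 6.47 to 7.42 with GFP. Their part in the subunit values was not tested.

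Core subunits of complex I bind NADH, the flavin and the iron-sulphur clusters along which electrons travel. Ndufs3, a core subunit of the arm that projects into the matrix, read 12.24, 12.09 and 11.80 with WNT4, against 11.72, 11.62 and 11.53 with GFP. All its WNT4 arrays lay above its GFP arrays, by 0.42 ± 0.13 on the log2 scale (SE; adjusted p = 0.253, limma with Benjamini-Hochberg adjustment). Ndufv1, which holds the NADH and flavin sites, read 12.52, 12.29 and 12.25 with WNT4, against 11.99, 11.94 and 12.10 with GFP, again without overlap (0.34 ± 0.13). The other core subunits examined here overlapped between the groups. Their differences were 0.35 ± 0.21 for Ndufs7 and 0.23 ± 0.17 for Ndufs1, both carriers of iron-sulphur clusters, 0.10 ± 0.16 for Ndufv2 and 0.08 ± 0.14 for Ndufs8. WNT4 3 was the lowest WNT4 array at each of these 6 core genes.

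Among the accessory subunits of complex I, Ndufb11 and Ndufa1 differed most. Ndufb11, a small subunit of the membrane arm, read 13.17, 12.73 and 12.76 with WNT4, against 12.37, 12.23 and 12.40 with GFP. The groups did not overlap, and the difference was 0.55 ± 0.13, or 1.46-fold (adjusted p = 0.182). Its other probe sets differed by 0.46 and 0.45. Ndufa1, another small membrane subunit, whose promoter is shown above, read 13.42, 13.05 and 13.26 with WNT4, against 12.70, 12.69 and 12.80 with GFP. This difference of 0.51 ± 0.11 (1.43-fold, adjusted p = 0.178) had the lowest p-value of the 64 subunits. Without array WNT4 2, Ndufa1 passed the test at 0.61 ± 0.11 (adjusted p = 0.046), one of only 3 subunits to do so under any alternative tried. In that fit 748 of 45037 probe sets were called, against 7 with all arrays.

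Further accessory subunits without overlap were Ndufa10 (0.37 ± 0.11), Ndufa9 (0.38 ± 0.11), which lies near the quinone site, Ndufa3 (0.39 ± 0.12), Ndufb6 (0.40 ± 0.17) and Ndufs4 (0.31 ± 0.16). Ndufb5 (0.26 ± 0.12) and Ndufb8 (0.19 ± 0.10) did not overlap either, at smaller differences. At the low end stood Ndufa5, an accessory subunit of the matrix arm, which read 11.49, 11.68 and 10.69 with WNT4, against 11.47, 11.45 and 11.12 with GFP. Array WNT4 3 lay below every GFP array and WNT4 1 and 2 lay above them, so the difference was only -0.06 ± 0.29. Its other probe set differed by 0.22. Ndufb10, a membrane arm subunit, had the same shape, at 10.37, 10.43 and 9.66 with WNT4 and 10.20, 10.08 and 10.25 with GFP (-0.02 ± 0.19). In complex I as a whole 33 of 35 genes (94.3%) had a higher mean with WNT4, against 88% of genes with a mean of at least 10. At an unadjusted p under 0.05, 9 of the 35 (25.7%) were higher, fewer than the 37.4% of those bright genes, and 13 (37.1%) did not overlap, near their 36.7%.

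Complex II, or succinate dehydrogenase, also works in the tricarboxylic acid cycle. All 4 of its genes were higher with WNT4 at an unadjusted p under 0.05, against 12.6% of all genes and 37.4% of genes with a mean of at least 10. Sdhd, a membrane anchor, read 11.76, 11.24 and 11.68 with WNT4, against 10.94, 11.16 and 11.13 with GFP, with no overlap (0.48 ± 0.14, 1.40-fold, adjusted p = 0.238). Sdhc, the other anchor, read 9.95, 9.95 and 9.97 with WNT4, against 9.66, 9.53 and 9.78 with GFP, also with no overlap. Its difference was smaller at 0.30 ± 0.09, and its WNT4 arrays had an SD of 0.01. The other probe set of Sdhc differed by -0.04, and that of Sdhd by 0.17. Sdhb, the iron-sulphur subunit, differed by 0.36 ± 0.14 and Sdha, which carries the flavin and oxidises succinate, by 0.29 ± 0.12, both with overlap. Without array WNT4 2, when 748 probe sets were called, Sdhd passed the test at 0.64 ± 0.10 (adjusted p = 0.0403).

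Complex III carries electrons through cytochromes and the Rieske protein. Uqcrb, a small subunit near the quinone site, read 14.96, 14.19 and 14.73 with WNT4, against 14.09, 13.86 and 14.16 with GFP. WNT4 2 lay only just above GFP 3, and the difference was 0.59 ± 0.18 (1.51-fold, adjusted p = 0.256). Without WNT4 2, when 748 probe sets were called, it passed at 0.81 ± 0.13 (adjusted p = 0.0403). Uqcrfs1, the Rieske iron-sulphur protein, read 12.71, 12.40 and 12.58 with WNT4, against 12.04, 12.01 and 12.34 with GFP, without overlap (0.43 ± 0.12). Uqcrc1, a core protein of the matrix side (0.40 ± 0.14), and Uqcrh, the hinge protein beside cytochrome c1 (0.37 ± 0.11), did not overlap either, while Uqcrc2, the other core protein, did (0.25 ± 0.18).

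The 3 remaining complex III genes are small subunits. Uqcrq varied most across the arrays, at 12.03, 11.58 and 11.07 with WNT4, 11.39, 11.25 and 10.77 with Cre and 11.06, 11.08 and 11.09 with GFP. Its WNT4 values spread so widely that the difference of 0.49 ± 0.24 overlapped the GFP arrays at WNT4 3. Uqcr11 differed by 0.19 ± 0.14. Uqcr10 was the only gene of the complex with a lower mean on its chosen probe set, at 8.78, 9.12 and 8.83 with WNT4, against 8.90, 8.97 and 9.01 with GFP (-0.05 ± 0.11), a difference smaller than its error. Its other probe sets, which were dimmer, differed by 0.16 and 0.20.

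In complex IV the nuclear subunits surround a core that mitochondria encode themselves, which was not examined here. Cox5b, a zinc-binding subunit, had the largest difference of all 64 subunits: 14.46, 14.03 and 14.43 with WNT4, against 13.67, 13.48 and 13.86 with GFP. The groups did not overlap, at 0.63 ± 0.16 or 1.55-fold (adjusted p = 0.194). Of its probe sets, the 5 that averaged 6 or more ran from -0.05, at the dimmest of them, to 0.63. Cox6a1, with its pair of promoter motifs, read 14.15, 13.72 and 13.74 with WNT4, against 13.36, 13.17 and 13.45 with GFP (0.54 ± 0.14). Cox4i1, which takes part in regulating the enzyme by ATP, read 13.94, 13.49 and 13.50 with WNT4, against 13.17, 12.98 and 13.16 with GFP (0.54 ± 0.14). In both, WNT4 1 was the highest array and no WNT4 array reached down to GFP. Cox6b1 (0.41 ± 0.13), Cox5a (0.40 ± 0.20) and Cox7a2 (0.33 ± 0.13) also did not overlap.

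Several complex IV subunits have isoforms used in other tissues, and these were low or differently placed. Cox4i2, an isoform of lung that low oxygen can induce, was dim at 5.05, 5.27 and 5.43 with WNT4 and 5.37, 5.38 and 5.31 with GFP (-0.11 ± 0.11). Cox6a2, the heart and skeletal muscle isoform, read 8.03 on WNT4 1 and 6.74 to 7.09 on the other 8 arrays, so its difference of 0.34 ± 0.29 rests on that array and was -0.05 without it. Of the 14 striated muscle markers 12 were dim (mean under 6), and the mean of the list ran from 5.27 to 5.53 with WNT4, 5.34 to 5.51 with Cre and 5.43 to 5.67 with GFP. Of the other 2, Tnni3 read 9.57, 9.36 and 7.17 with WNT4, 9.33, 9.39 and 7.62 with Cre and 9.37, 9.09 and 9.26 with GFP. Tnnc1 read 7.24, 6.89 and 6.94 with WNT4, 7.33, 6.79 and 7.18 with Cre and 6.40, 7.64 and 7.24 with GFP. On WNT4 1 the median of the 14 markers was -0.22 relative to the GFP mean. The part of muscle or oocyte RNA in the Cox6a2 value was not tested. Cox7a1 and Cox8b, the other muscle isoforms, differed by 0.26 ± 0.17 and 0.04 ± 0.18. Of the testis isoforms, Cox7b2 read 4.28, 4.41 and 4.39 with WNT4, against 4.13, 4.13 and 4.02 with GFP, a separation of 0.27 ± 0.08 at values near the lower end of the array. Cox8c had the lowest difference of all 64 subunits, -0.21 ± 0.16, at 7.33, 7.73 and 7.56 with WNT4 and 7.96, 7.88 and 7.42 with GFP, with overlap. Cox6b2 differed by 0.24 ± 0.30. The widespread isoforms Cox7a2l, also a factor that joins complexes into larger assemblies, and Cox8a differed by 0.23 ± 0.11 and 0.19 ± 0.10.

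**Figure D2:**
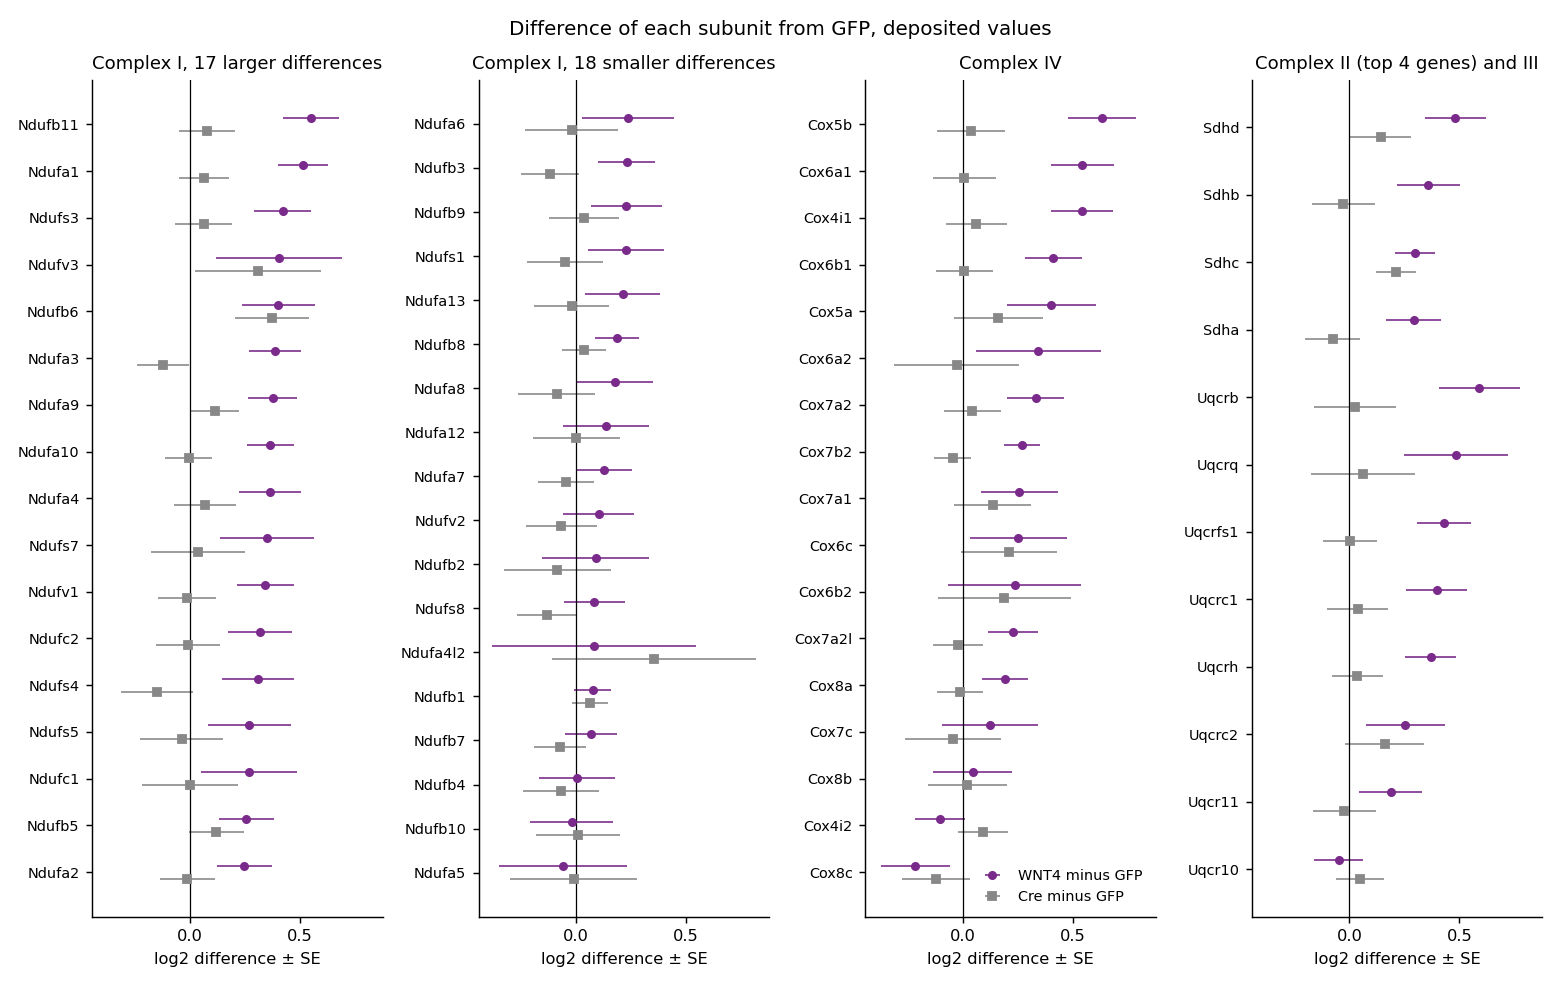
Log2 difference from GFP of each of the 64 subunits, WNT4 minus GFP as purple circles and Cre minus GFP as grey squares, with bars of 1 standard error from limma and genes ordered by the WNT4 difference within each complex. The WNT4 differences run from -0.21 (Cox8c) to 0.63 (Cox5b), while most Cre differences lie near 0.

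The differences followed the brightness of the probe sets. Among genes with a mean from 10 to 12 the median difference between WNT4 and GFP was 0.28 for the 28 subunits and 0.28 for all 2149 genes. With a mean from 12 to 16 it was 0.34 for the 21 subunits and 0.40 for all 494 genes. After quantile normalization, which gives all 9 arrays the same distribution, the median difference of the 64 subunits was -0.015, or -0.06, 0.03, 0.03 and 0.06 for complexes I to IV. Then 30 subunits were above 0 (46.9%), against 44.8% of all genes, and 1 was higher at an unadjusted p under 0.05 (Cox7b2, 0.30 after quantile normalization), against 5.07% of all genes. Sdhd stood at 0.15, Ndufb11 at 0.18, Ndufa1 at 0.09, Cox5b at 0.12 and Uqcrb at 0.04 on that scale. Ndufb7 (-0.31) and Ndufs8 (-0.30), which differed by 0.07 and 0.08 as deposited, were among the lowest there, together with Ndufa5 (-0.38) and Cox8c (-0.35).

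**Figure D3:**
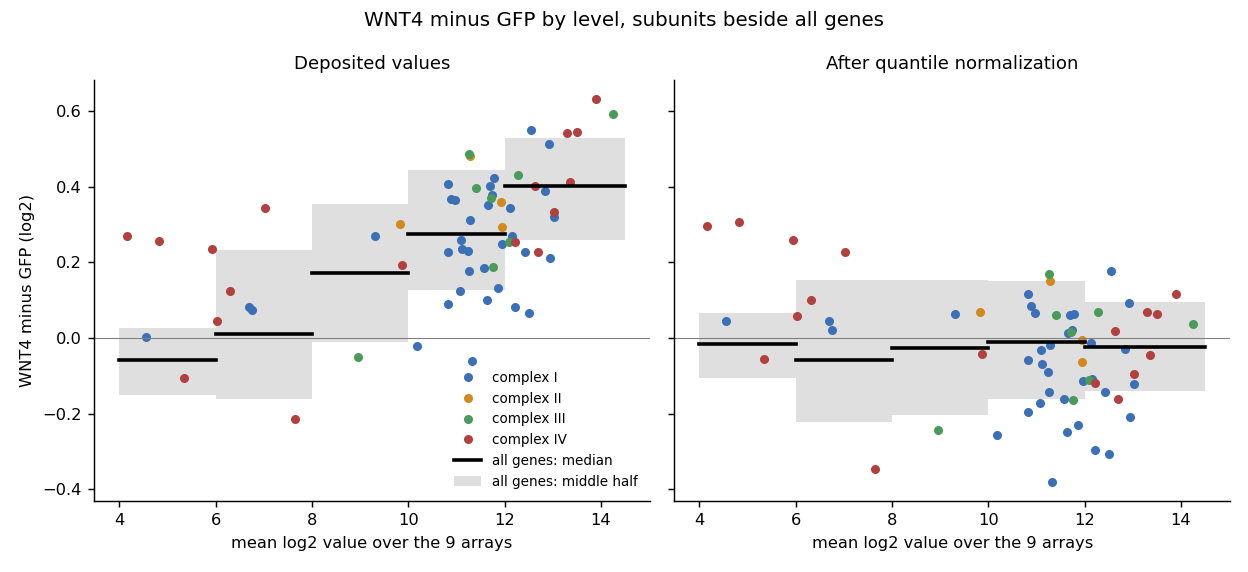
WNT4 minus GFP (log2) of each subunit against its mean log2 value over the 9 arrays, coloured by complex, with the median of all genes in 5 bands of level as a black line and their quartiles as a grey band. As deposited (left) the median of all genes climbs to 0.40 in the brightest band and the subunits lie around it, and after quantile normalization (right) both lie near 0.

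Cells labelled Cre were compared with the same GFP arrays. The subunits were close to the GFP level: the median difference was 0.01, with -0.01, 0.06, 0.04 and 0.02 for complexes I to IV, against -0.01 over all genes. Of the 64, 36 had a higher mean with Cre (56.2%), against 45.8% of all genes and 63.9% of genes with a mean of at least 10. Limma called 0 subunits and 0 of 45037 probe sets (0%). At an unadjusted p under 0.05, 1 subunit was higher, against 1.24% of all genes and 1.66% of those bright genes, and 0 were lower, against 1.29%. The groups did not overlap at 2 subunits, with Cre higher (3.12%), against 3.56% of all genes and 6.85% of the bright ones.

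These 2 were Sdhc and Ndufb6. Sdhc, the membrane anchor of complex II, read 9.79, 9.95 and 9.87 with Cre, against 9.66, 9.53 and 9.78 with GFP (0.21 ± 0.09, unadjusted p = 0.0452). Ndufb6, a membrane arm subunit of complex I, read 11.81, 11.92 and 11.69 with Cre, against 11.50, 11.43 and 11.37 with GFP (0.37 ± 0.17). With WNT4 both genes were also above GFP, by 0.30 and 0.40, and both comparisons share the GFP arrays. Neither gene passed the test with adjustment. Their other probe sets differed between Cre and GFP by 0.02 for Sdhc and 0.21 for Ndufb6. After quantile normalization 3 subunits were above all GFP arrays on every Cre array (3.85% of all genes), these 2 and the dim Cox4i2, at 0.17 for Sdhc and 0.30 for Ndufb6. On that scale 5 were below without overlap (4.24% of all genes): Ndufb3, Ndufc2, Ndufs8, Cox6b1 and Cox7a2l.

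The other genes at the ends of the Cre comparison had errors larger than or close to their differences. Ndufs4, Ndufs8 and Ndufa3 were lowest in complex I (-0.15 ± 0.16, -0.13 ± 0.14 and -0.12 ± 0.12). In complex III, Uqcrc2 (0.16 ± 0.18), Uqcrq (0.06 ± 0.24) and Uqcr10 (0.05 ± 0.11) were highest and Uqcr11 was lowest (-0.02 ± 0.14), the only one of the 8 below 0. In complex IV, Cox6c (0.21 ± 0.22), Cox6b2 (0.19 ± 0.30) and Cox5a (0.16 ± 0.20) were highest, and Cox8c (-0.12 ± 0.16), Cox7b2 and Cox7c (both -0.05) lowest. These ranks depend on the probe set chosen. The other probe set of Cox6c, of like brightness, differed by -0.04 and that of Uqcrc2 by -0.03, while those of Cox5a differed by 0.10 and 0.12. Sdhd, Sdhb and Sdha differed by 0.14 ± 0.14, -0.03 ± 0.14 and -0.08 ± 0.12.

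WNT4 was also set directly against Cre. This comparison uses the same 3 WNT4 arrays as the one against GFP, and the Cre subunits were close to GFP, so it is no repeat of that result. The median difference of the 64 subunits was 0.26, with 0.25, 0.35, 0.35 and 0.24 for complexes I to IV, against 0.05 over all genes, and 58 of 64 were above 0 (90.6%), against 61% of all genes and 88.2% of those with a mean of at least 10. Limma called 0 subunits (lowest adjusted p = 0.773) and 0 of 45037 probe sets (0%). At an unadjusted p under 0.05, 21 subunits were higher (32.8%), against 6.96% of all genes and 25.1% of those bright genes, and 0 were lower, against 1.19%. With 1 array left out at a time, that count ran from 10 (without WNT4 1) to 29 (without WNT4 3), with no share of all genes given for those fits. The groups did not overlap at 16 subunits, against 6.55% of all genes and 17.6% of those with a mean of at least 10. After quantile normalization the median was 0.02, and 1 subunit (Cox7b2) was higher at an unadjusted p under 0.05, against 2.14% of all genes.

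Ndufa3, a small membrane arm subunit, had the lowest p-value of this comparison. It read 13.39, 13.05 and 12.98 with WNT4, against 12.63, 12.71 and 12.55 with Cre, without overlap (0.51 ± 0.12, adjusted p = 0.773). Cox5b (0.59 ± 0.16), Uqcrb (0.57 ± 0.18), Cox6a1 (0.54 ± 0.14), Cox4i1 (0.48 ± 0.14), Ndufb11 (0.47 ± 0.13), Ndufs4 (0.46 ± 0.16) and Uqcrfs1 (0.43 ± 0.12) were among the largest. Of these, Ndufs4 alone overlapped, because WNT4 3 (11.31) lay below Cre 2 (11.38). Sdha did not overlap, at 12.23, 11.99 and 12.25 with WNT4 and 11.62, 11.94 and 11.80 with Cre (0.37 ± 0.12), whereas Sdhc, high in both groups, differed by 0.09 ± 0.09. The lowest differences belonged to Ndufa4l2 (-0.27 ± 0.46), Cox4i2 (-0.20 ± 0.11), Uqcr10 (-0.10 ± 0.11) and Cox8c (-0.09 ± 0.16). The other probe sets of Uqcr10 differed by 0.07 and 0.15 between WNT4 and Cre.

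Arrays WNT4 3 and Cre 3 stood apart in genes induced by low oxygen. Over 27 target genes of hypoxia-inducible factors and glycolysis genes, the median lay 2.82 above GFP on WNT4 3 and 2.36 on Cre 3, but 0.68 and 0.15 on the other WNT4 arrays and -0.06 and 0.15 on the other Cre arrays. Egln3, a HIF prolyl hydroxylase, read 11.46 on WNT4 3 and 10.76 on Cre 3, against 4.94 to 5.28 on the other 7 arrays. Leukocyte markers were higher on all 3 arrays numbered 3, by a median over 12 markers of 0.43 on WNT4 3, 0.44 on Cre 3 and 0.22 on GFP 3, with a mean level of 6.07 to 7.03 with WNT4, 6.40 to 7.25 with Cre and 6.51 to 7.01 with GFP. The part of low oxygen or of leukocyte RNA in the subunit values below was not tested.

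A few subunits were highest or lowest on the same arrays. Ndufa4l2, a paralogue of Ndufa4 that HIF is known to induce and that lowers complex I activity, read 6.33, 6.36 and 7.19 with WNT4, 6.40, 6.20 and 8.12 with Cre and 6.54, 6.75 and 6.36 with GFP. WNT4 3 and Cre 3 were its highest arrays, and its range of 1.92 over the 9 arrays was the widest of the 64. Its differences from GFP were smaller than their errors, 0.08 ± 0.46 for WNT4 and 0.35 ± 0.46 for Cre, and turned to -0.20 without WNT4 3 and -0.25 without Cre 3. Ndufa4 was first assigned to complex I, where it is counted here by its symbol, and was later found with complex IV. It read 11.13, 11.02 and 11.43 with WNT4, 10.78, 11.07 and 10.84 with Cre and 10.92, 10.63 and 10.94 with GFP. Its WNT4 arrays lay above all GFP arrays with WNT4 3 the highest (0.37 ± 0.14), but Cre 3 lay among the GFP arrays.

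Ndufv3, an accessory subunit beside the NADH site, read 10.75, 10.90 and 11.35 with WNT4, 10.42, 10.69 and 11.60 with Cre and 10.74, 10.44 and 10.59 with GFP. WNT4 3 and Cre 3 were its highest arrays too. Ndufa5, by contrast, had its lowest values there, 10.69 on WNT4 3 and 10.82 on Cre 3, against 11.12 to 11.68 on the other 7 arrays. Ndufb2 was likewise lowest on these arrays, at 11.19, 11.09 and 10.45 with WNT4, 11.08, 10.85 and 10.28 with Cre and 10.89, 10.92 and 10.65 with GFP. Ndufa4l2 and Ndufv3 were thus high, and Ndufa5 and Ndufb2 low, on the same 2 of 9 arrays. Ndufv3, Ndufa5 and Ndufb2 were picked after their values were seen, and no share of all genes with such a pattern is given here. Across all probe sets, the deviations of WNT4 3 and Cre 3 from their group means correlated at 0.77, so the pattern is not particular to these subunits.

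**Figure D4:**
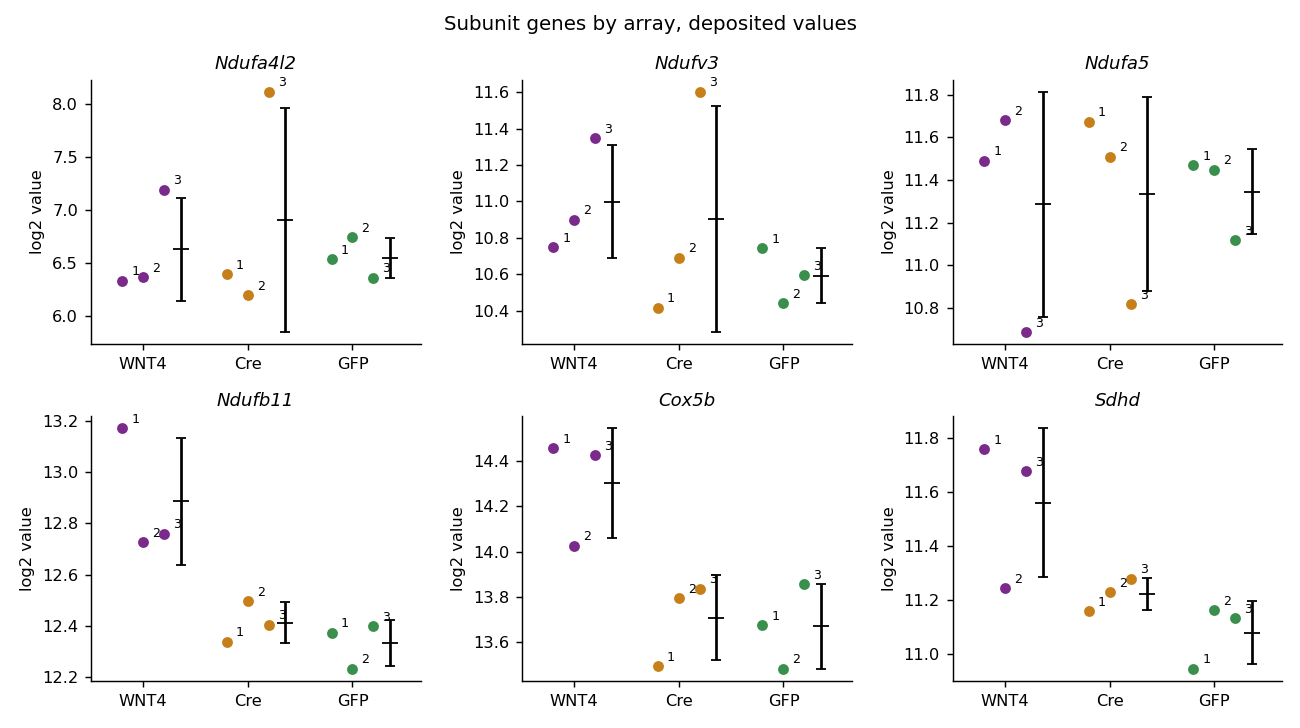
Deposited log2 values of 6 subunits on the 9 arrays, coloured by virus and numbered by replicate, with the mean and SD of each group as a bar beside the points. Ndufa4l2 and Ndufv3 are highest and Ndufa5 is lowest on the arrays WNT4 3 and Cre 3, while for Ndufb11, Cox5b and Sdhd all WNT4 arrays lie above all GFP arrays.

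Most complex I genes read low on these arrays once all arrays had been given the same distribution. After quantile normalization the median complex I gene lay at -0.27 on WNT4 3 and -0.21 on Cre 3 relative to the GFP mean. On WNT4 3, 27 of 35 complex I genes lay below all 3 GFP arrays (77.1%), against 41.0% of the genes with a mean of at least 10. On Cre 3 the count was 25 of 35 (71.4%), against 38.7%. The other 4 virus arrays differed among themselves in the share of complex I genes below all GFP arrays. It was 42.9% on WNT4 1 and 2.86% on WNT4 2, against 35.8% and 28.9% of genes with a mean of at least 10. On Cre 1 and Cre 2 it was 14.3% and 20.0%, against 28.5% and 26.2% of those genes. Complex III stood at -0.27 and -0.08 and complex IV at -0.14 and -0.10 on WNT4 3 and Cre 3, and complex II at 0.03 and -0.04. Other lists were low there too on this scale: complex V subunits stood at -0.29 and -0.18, tricarboxylic acid cycle enzymes at -0.22 and -0.23, assembly factors at -0.20 and -0.22, and the 13 granulosa cell markers lowest at -0.62 and -0.47. Electron carriers and coenzyme Q genes stood at -0.16 and -0.19. Not every mitochondrial list was low: the regulators of mitochondrial biogenesis and transcription stood at 0.11 and -0.05. The 3 mitochondrial genes of steroid synthesis stood at 0.43 and 0.28. The lower values were thus shared with some other mitochondrial lists and were larger in the granulosa markers, whose part in the complex I values was not tested. As deposited, complex I stood at 0.01 on WNT4 3 and -0.13 on Cre 3. On that scale 11 of 35 genes (31.4%) lay below all GFP arrays on WNT4 3, against 27% of all genes and 14% of bright genes, and 19 (54.3%) on Cre 3, against 28.1% and 28%. No test was made of these array values, since the arrays were singled out by their expression.

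Other genes of oxidative metabolism showed the same dependence on scale, and limma called 0 of each list in each comparison. The counts below are to be read against the 12.6% of all genes, and 37.4% of genes with a mean of at least 10, that were higher with WNT4 than with GFP at an unadjusted p under 0.05. Of 16 ATP synthase (complex V) subunits, 6 were higher at that threshold and 0 lower, with a median of 0.30, or -0.08 after quantile normalization. Atp5b, the catalytic beta subunit, differed by 0.66 ± 0.18, Atp5a1, the alpha subunit, by 0.57 ± 0.14, and Atp5d by 0.38 ± 0.10. Of 41 assembly factors of complexes I to IV, 5 were higher and 0 lower (median 0.17, quantile -0.03), led by Acad9, a complex I assembly factor (0.52 ± 0.16), Cox11, which delivers copper to complex IV (0.61 ± 0.20), and Ndufaf1 (0.36 ± 0.14). Of 20 electron carriers and coenzyme Q genes, 4 were higher and 0 lower (median 0.15, quantile -0.05). Among them Cyc1, cytochrome c1 of complex III, differed by 0.45 ± 0.11, Etfa by 0.68 ± 0.16 and Etfdh by 0.47 ± 0.11, the last a pair that feeds electrons from fatty acid oxidation to ubiquinone. Of 16 tricarboxylic acid cycle enzymes, 5 were higher and 0 lower (median 0.24, quantile -0.06), with Sucla2, a subunit of succinyl-CoA ligase, at 0.57 ± 0.16.

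Of 17 regulators of mitochondrial biogenesis and transcription, 3 were higher and 1 lower with WNT4 than with GFP at an unadjusted p under 0.05, against 12.6% and 4.46% of all genes (median 0.16, quantile 0.05). The transcription factor Yy1 differed by 0.71 ± 0.19, the mitochondrial transcription factor Tfb2m by 0.48 ± 0.17 and the coactivator Ppargc1b by -0.27 ± 0.11. Between Cre and GFP the medians of these lists were 0.05 for complex V, -0.04 for the assembly factors, 0.00 for the carriers, -0.03 for the cycle enzymes and -0.03 for the regulators. Between WNT4 and Cre they were 0.29, 0.19, 0.18, 0.29 and 0.18 in the same order. At an unadjusted p under 0.05, 0 genes of these 5 lists were higher with Cre, and 1, the complex II assembly factor Sdhaf2, was lower (-0.28 ± 0.12). The 3 mitochondrial genes of steroid synthesis stood apart from the subunits in size. Star, which carries cholesterol into mitochondria, differed between WNT4 and GFP by 2.05 ± 0.50, Cyp11a1, the side chain cleavage enzyme, by 1.21 ± 0.41 and its electron donor Fdx1 by 0.82 ± 0.21. Between Cre and GFP they differed by 0.83 ± 0.50, 0.30 ± 0.41 and 0.11 ± 0.21. After quantile normalization the WNT4 differences were 1.90, 0.74 and 0.30, where the largest subunit difference was 0.31 (Cox7a1, dim).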

How the data were processed

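RNA from cultured mouse granulosa cells was measured on 9 Affymetrix arrays, 3 for each of the viruses WNT4, Cre and GFP, with groups taken from the labels. The authors deposited log2 values, and the submitters' processing notes name RMA, with no version, as the method behind them. RMA normalizes between arrays, yet the upper percentiles of the deposited values still differ, so quantile normalization was repeated as an alternative.

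Of 45101 probe sets, 64 controls were left out and 45037 tested. The platform annotation gave 34945 of them 1 symbol, 932 several (not named) and 9160 none here. All 64 subunits matched RefSeq by Entrez ID, with 0 symbols changed. The probe sets come with no genome build, so they have no coordinates here. Promoter sequences are RefSeq's (GRCm38.p6).

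Limma 3.58.1 under R 4.3.3 was fitted once to the 9 arrays, by lmFit followed by eBayes, with no covariate and two-sided tests (residual degrees of freedom 6, prior 2.8). P-values were adjusted over all 45037 probe sets within a comparison by the Benjamini-Hochberg method, with a call at an adjusted p under 0.05. Tables were made in Python 3.11.15 with pandas 2.3.3. The procedure was tested on simulated data. A difference carries limma's standard error and a mean its SD. With groups of 3, no array was tested as an outlier. The subunits, the pathway lists and the marker lists (granulosa, theca with stroma and smooth muscle, striated muscle, leukocyte, oocyte, erythrocyte, endothelial) were chosen with earlier results of these data known, so counts and medians are descriptions.

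The text names, by rule, any subunit called, the 3 largest differences each way per comparison in complexes I, III and IV, the 4 succinate dehydrogenase genes, paired isoforms, core subunits, the 3 widest ranges, genes whose probe sets disagree, and up to 3 genes of each list with the lowest p. Ndufv3's array pattern and those of Ndufa5, Ndufb2 and Egln3, and the quantile values of Ndufb7, were picked after their values were seen, as were the further genes named because their groups did not overlap.

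The labels do not tie replicate numbers to an animal or day. Deviations of same-numbered arrays from their group means correlated, across probe sets, at -0.08, 0.01 and 0.35 between WNT4 and GFP, at -0.04, -0.31 and 0.31 between Cre and GFP, and at 0.21, 0.24 and 0.77 between WNT4 and Cre. Every correlation was over 0.1 only between WNT4 and Cre. All values in the text come from the fit without pairs, and the replicate block was run as an alternative for each comparison.

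Alternatives were the replicate block, a fit of just the 2 compared groups, quantile normalization, array centring (median, 75th percentile), a filter that drops dim probe sets (mean under 6), array weights, an intensity trend in eBayes, averaging all probe sets of each gene, other thresholds, leaving out each array in turn and leaving out the 3 arrays numbered 3. Leaving out Cre 3 and WNT4 3 together was added after seeing the data.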

Additional observations from a re-analysis of the deposited data

How the results depend on the processing

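The count of 0 called subunits held in all 3 comparisons under each alternative tried, except that 3 (Ndufa1, Sdhd and Uqcrb) were called in WNT4 against GFP without array WNT4 2, when 748 probe sets were called, so that leaving out 1 array at a time gave 0 to 3. At an unadjusted p under 0.05 the counts were 23 for WNT4 against GFP, 1 for Cre against GFP and 21 for WNT4 against Cre. With 1 array left out they ran from 17 to 35, 0 to 1 and 10 to 29, and without Cre 3 and WNT4 3, an alternative chosen after seeing the data, they were 38, 1 and 20. With the replicate block they were 25, 1 and 24, and the block changed no call and no median. The shares of all genes at that threshold are not given for these alternative fits. Quantile normalization moved the medians most. For WNT4 against GFP it gave -0.015 over all subunits and -0.0567, 0.0328, 0.0256 and 0.0579 for complexes I to IV. For WNT4 against Cre it gave 0.0195 over all and -0.0206, 0.0869, 0.0752 and 0.0403. For complex III in Cre against GFP it gave -0.0441. Centring on the 75th percentile gave 0.11 over all subunits, 0.18 for complex II and 0.10 for complex IV in WNT4 against GFP, and 0.25 for complex II and 0.14 for complex IV in WNT4 against Cre. Under that centring the median over every probe set was -0.15, -0.06 and -0.08 in WNT4 against GFP, Cre against GFP and WNT4 against Cre. Without the 3 arrays numbered 3, complex IV stood at 0.38 in WNT4 against GFP and complex III at 0.12 in Cre against GFP. Without Cre 3 and WNT4 3, complex IV in WNT4 against GFP stood at 0.42, and over all subunits the medians were 0.36, 0.06 and 0.29 in the same order of comparisons. The mean of all probe sets of a gene gave 0.15 for complex II in WNT4 against Cre. With 1 array left out at a time, the complex IV median ran from 0.18 to 0.42 in WNT4 against GFP and from 0.10 to 0.32 in WNT4 against Cre, the extremes without WNT4 3 (0.42) and WNT4 1 (0.10). The median over all subunits ran from 0.17 to 0.36, from -0.04 to 0.06 and from 0.17 to 0.34 in the 3 comparisons. Of 44 named subunits, quantile normalization kept the sign of 29, 32 and 33. The cause of these shifts was not tested. Dim subunits are read close to the lower end of the arrays, and 3 arrays per group limit every comparison.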
